A study of Mus musculus with 4 samples.

Results

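The genes described here carry zinc across the plasma membrane or answer to zinc inside the cell. They comprise the importers Slc39a10, Slc39a6, Slc39a14, Slc39a8, Slc39a1 and Slc39a3, the exporter Slc30a1, the metallothioneins Mt1 and Mt2, and the zinc-sensing transcription factor Mtf1. They were chosen by name, and a gene counted as measured where a row of the expression table carried its symbol alone. This gave 9 of the 10 genes, out of 22180 genes measured in all, with 1 row each. Slc30a1 (ZnT1) was not analysed here, because the 2 rows that carry its name carry another gene's name as well.

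Total RNA of mouse fibroblasts had been hybridised to Affymetrix Mouse Gene 2.0 ST arrays, 1 array per RNA sample. The Zip13KO group came from mice without Zip13, also written Zip13-/-, and the WT group from wild-type mice, with 2 arrays labelled as biological replicates in each. Slc39a13 encodes Zip13, a zinc transporter of the secretory pathway, and the study's stated interest is zinc balance around the Golgi. The sources used here do not give age, body site, passage or the deleted part of the gene. They also leave unsaid whether the replicates are separate animals or separate cultures, so p-values measure only a spread between samples that may be technical. Values are intensities, which have no physical unit, and intensities of different genes cannot be ranked against each other because their probes differ. In bulk RNA, fewer cells with a transcript and less transcript per cell cannot be told apart.

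The median intensity of all rows lay between 94.5 and 96.1 on the 4 arrays. Pearson's r across all rows was 0.994 within Zip13KO, 0.994 within WT and 0.983 to 0.985 between the groups. Of 9 fibroblast markers, 8 lay above the median row, Lum being the exception. So did 3 of 3 skeletal muscle, 2 of 3 epithelial, 2 of 4 endothelial and 0 of 2 adipocyte markers. Lying above the median row therefore does not single out fibroblasts. The median fibroblast marker lay above 88.8% of all rows. This share was 61.6% for skeletal muscle, 60.2% for epithelial, 47.2% for endothelial and 49.2% for adipocyte markers. Several fibroblast markers moved with the genotype, 5 of the 9 in all (55.6%, beside 17.1% of all genes, dim ones included). Pdgfra was higher in Zip13KO (2.06-fold), and Pdgfrb (0.530-fold), Col1a1 (0.541-fold), Col1a2 (0.729-fold) and Vim (0.887-fold) were lower. Markers of contractile cells (myofibroblast or smooth muscle) moved too, with 4 of 5 lower in Zip13KO (80%, beside 10.1% of all genes). Those lower were Myl9 (0.0632-fold), Acta2 (0.237-fold), Tagln (0.357-fold) and Cnn1 (0.685-fold). Des did not pass and lay the other way, at 0.23 log2 units. The summed intensity of the 5 was 2767 and 2815 on the Zip13KO arrays, against 13181 and 12732 on the WT arrays. Macrophage markers summed to 607 and 588 in Zip13KO and to 647 and 600 in WT, with Ptprc, Adgre1 and Itgam below the median row. The other 3 passed the test in different directions, Cd68 at 0.40 log2 units, Cd14 at -0.32 and Csf1r at -0.26. The part of any of these marker shifts in the results below was not tested. Slc39a13 itself read 474 and 506 on the Zip13KO arrays, against 491 and 461 on the WT arrays. These values overlap, and the sources used here do not place its probes relative to the deletion, so they do not check the labels.

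ZIP proteins bring zinc into the cytosol, and ZnT proteins take it out, either across the plasma membrane or into compartments. Free cytosolic zinc is kept very low, and metallothioneins, small proteins rich in cysteine, hold much of the exchangeable remainder. MTF1 binds zinc through its zinc fingers and then switches on Mt1, Mt2 and Slc30a1 from short promoter motifs called metal response elements. In mouse cells it has also been described as a repressor of Slc39a10, which is known to rise when zinc is scarce. Metallothionein genes respond to other metals, glucocorticoids and oxidative stress as well.

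Both metallothioneins and 1 surface importer rose in Zip13KO fibroblasts, and Mtf1 fell. Slc39a10 was 1.46-fold higher (95% interval 1.31 to 1.64), Mt2 1.35-fold (1.21 to 1.51) and Mt1 1.19-fold (1.09 to 1.30). Mtf1 stood at 0.816 of its WT level (0.733 to 0.908). The 5 other importers did not pass the test, which was limma's moderated test with a Benjamini-Hochberg adjusted p under 0.05 over all genes. That made 3 higher and 1 lower of 9, or 44.4%, where 17.1% of all genes passed in either direction, 7.00% upward and 10.1% downward. All genes include many dim ones. With dim rows left out, 1627 of 13819 genes were higher and 2351 lower, a larger share, beside the same 3 and 1 of the 9. The arrays of the groups did not overlap for 8 of the 9 genes, against 51.5% of all genes. In 4 of these Zip13KO lay above WT, as in 24.1% of all genes, and in 4 below it, as in 27.3%. The median difference, Zip13KO minus WT, was 0.0067 log2 units over the 9 genes and -0.0034 over all genes. The genes were picked with earlier results of these data known, so these shares describe them and support nothing further.

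**Figure D1:**
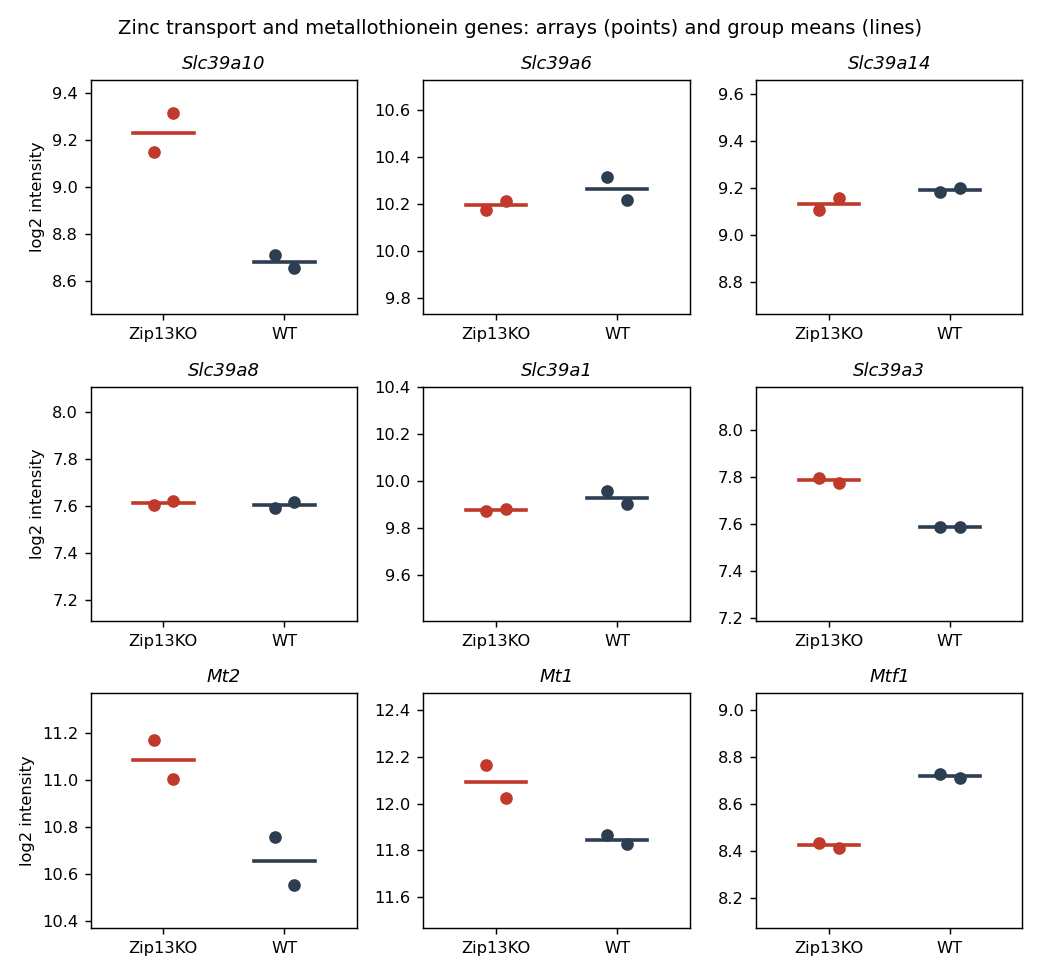
Log2 intensity (vertical axis, a span of 1 log2 unit in every panel) of the 9 measured genes on each array, with Zip13KO on the left and WT on the right of each panel. Points are arrays and horizontal lines are group means of 2 arrays. Slc39a10, Mt2 and Mt1 sit higher on both Zip13KO arrays, Mtf1 sits lower, and Slc39a8 overlaps.

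Slc39a10 (ZIP10), an importer of the LIV-1 subfamily at the cell surface, read 568 and 637 on the Zip13KO arrays, against 419 and 404 on the WT arrays. Both Zip13KO arrays lay above both WT arrays, and the gap between groups was wider than the gap between replicates. On the log2 scale the means were 9.23 ± 0.12 in Zip13KO and 8.68 ± 0.04 in WT (SD, n = 2 each), a difference of 0.55 (SE 0.08, limma adjusted p = 4.59e-05). Of all genes, 3.9% differed by at least as much in either direction. Slc39a10 passed the test under every setting tried, and its difference ran from 0.47 to 0.63 over them.

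Slc39a6 (ZIP6) is the closest relative of ZIP10, with which it can form a heteromer at the plasma membrane. It read 1155 and 1188 in Zip13KO, against 1272 and 1190 in WT. The lower WT array lay just above the higher Zip13KO array. The difference was -0.07 log2 units (95% interval -0.21 to 0.07, limma adjusted p = 0.606), so a fall by up to 0.21 or a rise by up to 0.07 is inside the interval. The ratio of Slc39a10 to Slc39a6 on the same array was compared between groups to ask whether the pair moved apart. Its log2 value was -1.02 and -0.90 on the Zip13KO arrays, against -1.60 and -1.56 on the WT arrays. The groups did not overlap, and the ratio was 0.62 log2 units higher in Zip13KO. An exact two-sided permutation test gave p = 0.333, which is the smallest that 2 arrays against 2 can give (0.333 after adjustment over the 3 related pairs compared).

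The pair ZIP14 and ZIP8 also carry iron and manganese besides zinc. Slc39a14, which encodes ZIP14, read 551 and 572 in Zip13KO, against 581 and 589 in WT. Slc39a8, which encodes ZIP8, read 195 and 197 in Zip13KO, against 193 and 197 in WT. Neither passed the test: the differences were -0.06 log2 units (95% interval -0.21 to 0.09, limma adjusted p = 0.704) for Slc39a14 and 0.0067 (-0.16 to 0.17, adjusted p = 0.977) for Slc39a8. The Slc39a14 arrays were split by group with a small gap, and those of Slc39a8 overlapped. Their ratio differed between groups by -0.07 log2 units (exact permutation p = 0.333, the smallest possible).

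Slc39a1 and Slc39a3 encode ZIP1 and ZIP3, importers of a second subfamily. Slc39a1 read 935 and 943 in Zip13KO, against 993 and 956 in WT, a difference of -0.05 log2 units (95% interval -0.20 to 0.09, limma adjusted p = 0.722). Slc39a3 read 222 and 219 in Zip13KO, against 192 and 192 in WT. Its replicates lay close together and the groups were well apart, with log2 means of 7.79 ± 0.01 in Zip13KO and 7.59 ± 0.0011 in WT (SD, n = 2 each). The difference of 0.20 (SE 0.08, unadjusted p = 0.0191) nevertheless missed the threshold after adjustment (limma adjusted p = 0.0940). Slc39a3 passed in 1 of 17 other settings, where replicate numbers crossed between the groups were fitted as well (adjusted p = 0.0338). The SE of the fit draws on the spread of genes of like intensity and not on these 4 values alone. Of the 49 other genes in its block of 50 neighbours on chromosome 10, 22.4% were higher and 4.08% lower, with a median of 0.11, and centring on such blocks left Slc39a3 at 0.11 (adjusted p = 0.415).

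**Figure D2:**
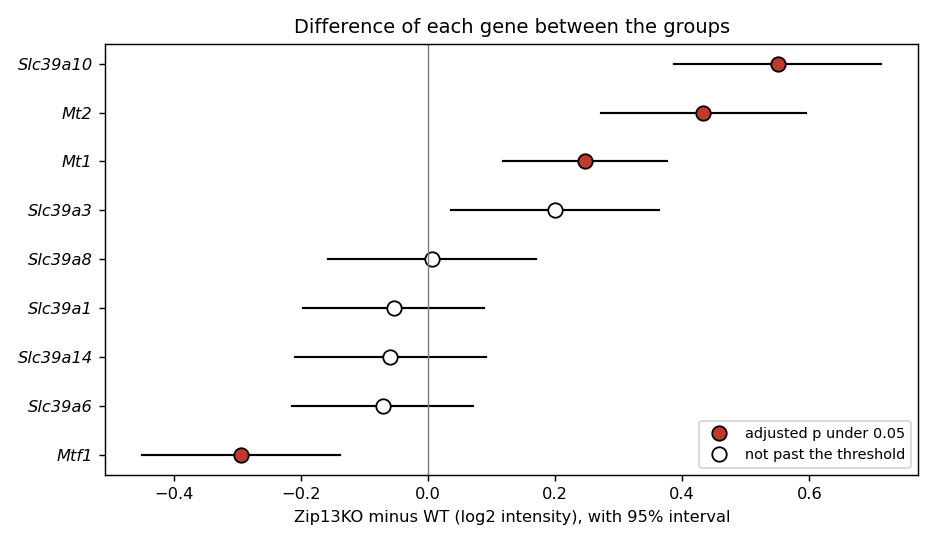
Difference between Zip13KO and WT in log2 intensity (horizontal axis) for each of the 9 genes, with its 95% interval from limma (bars, 2 arrays per group). Filled points have an adjusted p under 0.05: Slc39a10, Mt2 and Mt1 on the positive side and Mtf1 on the negative side.

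Mt1 and Mt2 encode the metallothioneins that most mouse tissues make. Mt2 read 2303 and 2054 on the Zip13KO arrays, against 1730 and 1501 on the WT arrays. Mt1 read 4588 and 4163 in Zip13KO, against 3733 and 3629 in WT. For both genes each Zip13KO array lay above each WT array. The log2 means of Mt2 were 11.09 ± 0.12 in Zip13KO and 10.65 ± 0.14 in WT, a difference of 0.43 (SE 0.08, limma adjusted p = 4.50e-04). Those of Mt1 were 12.09 ± 0.10 in Zip13KO and 11.85 ± 0.03 in WT (SD, n = 2 each), a difference of 0.25 (SE 0.06, adjusted p = 0.00748). Differences at least as large in either direction were found in 6.19% of all genes for Mt2 and 15.6% for Mt1. The log2 ratio of Mt2 to Mt1 was -0.99 and -1.02 in Zip13KO, against -1.11 and -1.27 in WT, so it was 0.19 higher in Zip13KO without overlap (exact permutation p = 0.333, the smallest possible). This value rests on single arrays, being 0.10 without WT replicate 2 and 0.27 without WT replicate 1. The transcripts are related in sequence and may share signal on the array, so their separate sizes are uncertain.

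Mt1 did not pass without WT replicate 2 (difference 0.23, adjusted p = 0.0636). With all rows, named or not, in both fit and adjustment, Slc39a10 alone of the 4 genes passed (adjusted p = 0.0166), with Mt2 at 0.0568, Mt1 at 0.103 and Mtf1 at 0.0627.

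The promoters of both metallothioneins are shown because they are the classical places of metal response elements. They come from RefSeq (GRCm38.p6), where 8 of the 10 genes were matched by symbol, run from 250 bases before to 50 after the listed start, and are given 5′ to 3′ on the gene's strand. Capitals mark matches to TGCACNC or TGCGCNC, the core of the element in its 2 spellings, on either strand. Mt2 is at chr8:94172368-94172667 (plus strand) and Mt1 at chr8:94178839-94179138 (plus strand). Slc39a10, whose transcript rose with them, is shown at the more GC-rich of its 2 listed starts, chr1:46853569-46853868 (minus strand).
Mt2: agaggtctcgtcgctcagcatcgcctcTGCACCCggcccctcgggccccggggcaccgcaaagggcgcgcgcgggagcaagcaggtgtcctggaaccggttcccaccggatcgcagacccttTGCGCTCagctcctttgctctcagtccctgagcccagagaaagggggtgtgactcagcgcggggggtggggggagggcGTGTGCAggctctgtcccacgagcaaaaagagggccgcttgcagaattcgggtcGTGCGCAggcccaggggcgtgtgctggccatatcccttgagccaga
Mt1: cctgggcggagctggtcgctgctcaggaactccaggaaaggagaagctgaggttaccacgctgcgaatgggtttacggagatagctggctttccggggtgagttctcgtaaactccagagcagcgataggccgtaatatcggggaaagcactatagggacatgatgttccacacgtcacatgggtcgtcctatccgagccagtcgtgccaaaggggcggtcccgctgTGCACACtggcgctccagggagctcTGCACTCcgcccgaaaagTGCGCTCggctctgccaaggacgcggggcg
Slc39a10: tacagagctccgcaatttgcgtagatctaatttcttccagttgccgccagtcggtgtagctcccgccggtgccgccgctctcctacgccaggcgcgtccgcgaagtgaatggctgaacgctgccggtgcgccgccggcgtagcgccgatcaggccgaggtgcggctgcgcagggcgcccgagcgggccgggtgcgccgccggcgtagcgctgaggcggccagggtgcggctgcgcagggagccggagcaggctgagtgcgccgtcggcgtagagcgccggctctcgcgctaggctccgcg

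The Mt2 window held 4 matches, beginning at bases -223, -128, -50 and 5 relative to the listed start. The Mt1 window held 3, at bases -23, 3 and 21 relative to its listed start. Whether the listed starts are the ones used in these fibroblasts was not tested. Of 32851 promoter windows of the same length, 25.7% held at least 1 match, 1.97% at least 3 and 0.517% at least 4. The 2 windows of Slc39a10, with GC contents of 72.3% and 38.7%, held 0 matches, as did those of Mtf1 and Slc39a1. Slc39a3 held 1 and Slc30a1 held 2, while of the 2 windows of Slc39a8 one held 1 match and the other 0. Slc39a14 and Slc39a6 were not searched. A match is a run of letters and not a measured binding site, and elements outside these windows are not seen.

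Mt1 and Mt2 lie side by side on chromosome 8 beside Mt3 and Mt4, the forms known from brain and from stratified epithelium. Neither of these passed the test: Mt3 differed by 0.07 log2 units (limma adjusted p = 0.688) and Mt4 by 0.14 (adjusted p = 0.377). On the far side of Mt1, the nuclear pore gene Nup93 fell by 0.37 (adjusted p = 9.92e-04). Herpud1, a gene of endoplasmic reticulum stress, fell by 0.22 (adjusted p = 0.0270). Close neighbours that did not pass lay on both sides of 0, with Bbs2 at 0.16, Slc12a3 at 0.12, Ogfod1 at -0.03 and Mir138-2 at -0.22. In the block of 50 neighbours that holds Mt1 and Mt2, each has 49 other measured genes, counting the other of the pair. Of these, 2.04% were higher, which was the other metallothionein alone, and 24.5% were lower, with a median difference of -0.05. Both metallothioneins stood above the median of this block, and centring on it gave them larger differences, 0.50 for Mt2 and 0.31 for Mt1.

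**Figure D3:**
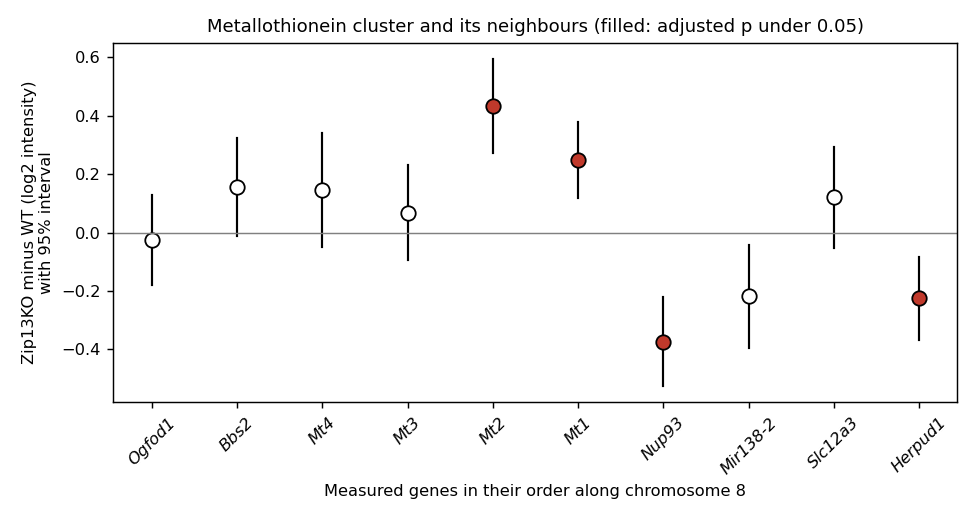
Difference between Zip13KO and WT in log2 intensity (vertical axis, bars are 95% intervals from limma) for 10 measured genes in their order along chromosome 8. Filled points have an adjusted p under 0.05. Mt2 and Mt1 are the 2 filled points above 0, Nup93 and Herpud1 are filled below it, and open points lie on both sides.

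Mtf1, the transcription factor that activates both metallothionein genes, read 346 and 341 on the Zip13KO arrays, against 423 and 419 on the WT arrays. The replicates differed little and the groups stood apart. The log2 means were 8.42 ± 0.01 in Zip13KO and 8.72 ± 0.01 in WT (SD, n = 2 each), a difference of -0.29 (SE 0.07, limma adjusted p = 0.00830). Of all genes, 12.3% differed by at least as much in either direction. The Mtf1 transcript was thus lower in the arrays in which Mt1 and Mt2 were higher. Of the 49 other genes in its block on chromosome 4, 0 were higher and 24.5% lower, with a median of -0.11. Centring on the block left Mtf1 at -0.18 (adjusted p = 0.0912), and without WT replicate 1 it did not pass either (difference -0.29, adjusted p = 0.0519).

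The other zinc transporters, most of which serve the Golgi, the endoplasmic reticulum, vesicles or specialised tissues, mostly did not pass the test. Of 8 other ZIP genes, 1 fell and 0 rose, a share of 12.5% beside 17.1% of all genes. Their median difference was 0.0071 log2 units. The one that fell was Slc39a7, which releases zinc from the endoplasmic reticulum, at -0.38 (limma adjusted p = 0.00105). Of 8 measured ZnT genes 0 passed in limma, with 3 at an unadjusted p under 0.05 and a median of -0.11. Slc30a6, which encodes a subunit of a transporter that loads zinc into the secretory pathway, had the smallest p. It differed by -0.19 (adjusted p = 0.0669). Centring on chromosome blocks (adjusted p = 0.0384), leaving out dim rows (0.0445) or fitting crossed replicate numbers (0.00716) brought it past the threshold.

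Among 11 other genes listed as MTF1 targets or as metal-responsive, 2 rose and 2 fell. That was a share of 36.4%, beside 17.1% of all genes, with a median of 0.02. All genes include dim ones, and with dim rows left out their share was larger (1627 higher and 2351 lower of 13819). The list was drawn up with earlier results of these data known. Ndrg1, a gene of hypoxia and metal stress, rose by 0.41 and the haem oxygenase Hmox1 by 0.30 (limma adjusted p = 8.39e-04 and 0.00494). Ndrg1 has 2 rows, and their mean differed by 0.25 (adjusted p = 0.0317). Pgf, a growth factor of the VEGF family, fell by 0.75 (adjusted p = 2.32e-06). Csrp1, a LIM protein of contractile cells, fell by 0.53 (adjusted p = 4.23e-06). Csrp1 fell in the arrays in which contractile markers were lower too, and their part in this was not tested. Hmox1 did not pass with all rows in both fit and adjustment (adjusted p = 0.0528).

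**Figure D4:**
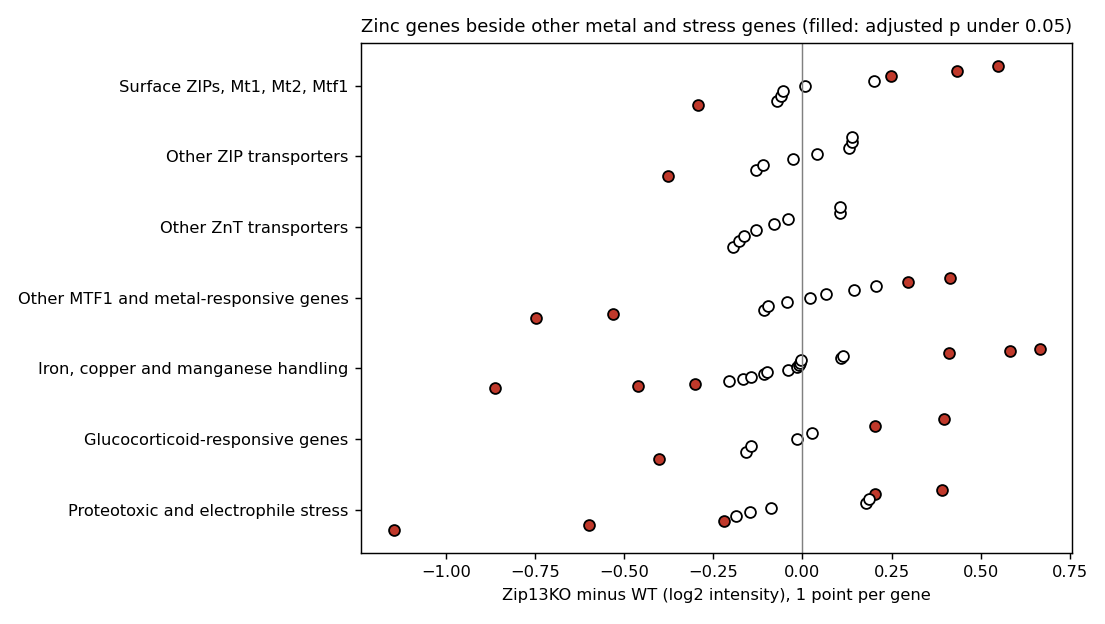
Difference between Zip13KO and WT in log2 intensity (horizontal axis), 1 point per gene, for the 9 zinc genes in the top row and for 6 lists of other genes below. Filled points have an adjusted p under 0.05 in limma. In the ZIP row Slc39a7 alone is filled, in the ZnT row none is, and the metal-responsive row has 2 filled points on each side of 0.

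For each of the 4 genes that passed, the 3 most similar genes were found by the Euclidean distance between log2 values over the 4 arrays, each gene centred on its own mean. With 4 arrays, this likeness reflects the size of the group difference and the order of the replicates, and no more. Nearest to Slc39a10 were Tmem170, Lama5 and Kif21a, at distances of 0.0167, 0.0272 and 0.0315 log2 units. Tnfrsf11a, Adamtsl5 and Pced1b were nearest to Mt2 (0.0517, 0.0592 and 0.0705). Pxmp2, Neil1 and Wbp2 were nearest to Mt1 (0.0169, 0.0266 and 0.0279), and Mcl1, Rnf122 and Mrrf to Mtf1 (0.00907, 0.0131 and 0.0133). Neither Mt gene was among the 3 nearest of the other.

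**Figure D5:**
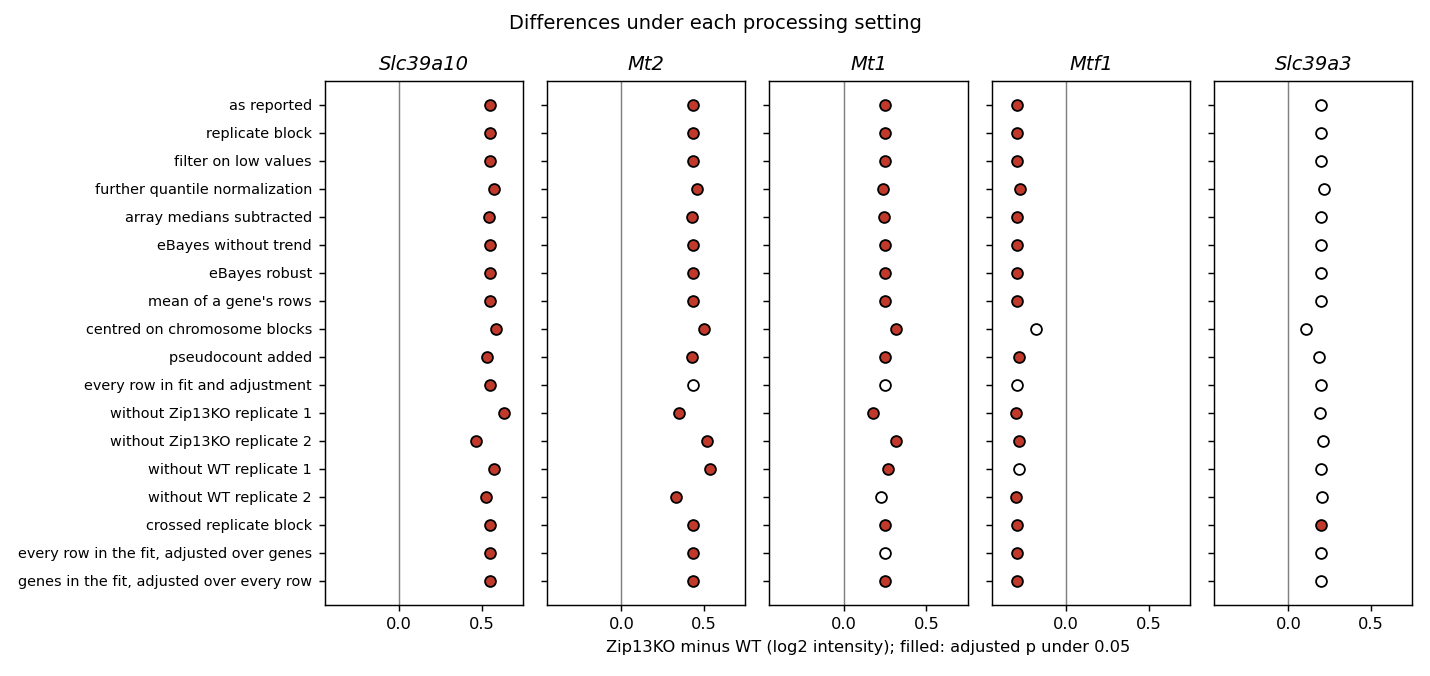
Difference between Zip13KO and WT in log2 intensity (horizontal axis) for Slc39a10, Mt2, Mt1, Mtf1 and Slc39a3 (panels) as reported and under 17 other processing settings (rows). Filled points have an adjusted p under 0.05. Slc39a10 is filled in every row, while Mt2, Mt1 and Mtf1 are open in at least 1 row each and keep their sign in all.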

How the data were processed

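Total RNA from 2 Zip13KO and 2 WT fibroblast samples had been run on single-colour arrays. The authors' deposited table holds intensity values, which are linear. The submitters' processing notes name RMA and Affymetrix Expression Console and give no versions. The values ran from 21.8 to 10826, so RMA's log2 output appears to have been raised back, and log2 was taken first, with no pseudocount. RMA brings the distributions of the arrays close together, which hides any shift common to most genes. They were not fully equal here, as array medians ran from 94.5 to 96.1 and a further quantile normalization moved the counts given below. The number of arrays limits the precision.

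Names came from the platform annotation: of 41345 rows, 23521 had 1 symbol, 1814 had several and 16010 had none. Of the former, 23328 matched the RefSeq table of GRCm38.p6 by gene ID, which changed 0 symbols and served for gene order. For genes with several rows (1082), the brightest was used. limma 3.58.1 in R 4.3.3 (lmFit, eBayes with trend, two-sided) was fitted over 22180 genes and checked on simulated data. It had 2 residual and 15.1 prior degrees of freedom. Plots used matplotlib 3.10.9 in Python 3.11.15.

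The 10 genes, the lists and most alternatives were chosen with earlier results of these data known. The text names all 9 measured genes and Slc39a13; from each list up to 4 that passed, or the one with the smallest p; and the 3 genes nearest each gene that passed, above the median row and without predicted, RIKEN or small RNA names. The 4 genes on either side of the metallothioneins were added after values had been seen, as were the list genes marked so in the text.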

Additional observations from a re-analysis of the deposited data

How the results depend on the processing

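Zip13KO minus WT was recomputed under 14 planned settings and 3 chosen after seeing the data. Slc39a10 passed in all 17, Mt2 in 16, Mt1 in 14 and Mtf1 in 14, each with its direction kept. With all rows in both fit and adjustment, 1 of the 9 genes was higher and 0 lower, with 669 of all genes higher and 1137 lower. With every row in the fit but adjustment over genes these were 803 and 1321, with 2 of the 9 higher and 1 lower, and with genes in the fit and adjustment over every row 1390 and 2038, so the fit moved the counts more than the adjustment did. Centring on chromosome blocks left 0 of the 9 lower and turned Slc39a1 to 0.0051. Leaving out an array in turn gave 2 to 3 of the 9 higher and 0 to 1 lower, and 1125 to 1545 of all genes higher and 1590 to 2346 lower. Over these, Slc39a8 ran from -0.0058 to 0.019 and Slc39a13 from -0.0055 to 0.090. Slc39a8 was below 0 without Zip13KO replicate 2 (-0.0017) and without WT replicate 1, and Slc39a13 without either replicate 2 (-0.0041 without that of WT). The cause of these shifts was not tested. A lone array left in a group was taken to vary as the other group does.

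The labels number the replicates alike in both groups but do not say that numbers pair arrays. Deviations of same-numbered arrays from their group means correlated at -0.158 across genes, and with the replicate number as a block 3 of the 9 genes were higher and 1 lower, with 1374 of all genes higher and 1990 lower. Crossed numbers gave 4 and 1, Slc39a3 being the gene added, with 2203 and 3005. A further quantile normalization moved the split of all genes to 1901 higher and 2260 lower.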

Other observations

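Genes of iron and copper handling moved in both directions in Zip13KO fibroblasts. Of 18 measured, 3 rose and 3 fell (33.3%, beside 17.1% of all genes, dim ones included), with a median difference of -0.03 log2 units. The transferrin receptor Tfrc, the main entry of iron into most cells, fell by 0.86 (limma adjusted p = 4.32e-08), and both Zip13KO arrays lay below both WT arrays. After centring on chromosome blocks Tfrc stood at -0.61 (limma adjusted p = 7.89e-06). The endosomal iron reductase Steap3 rose by 0.67 and Slc25a37 (mitoferrin 1) by 0.58, both without overlap between groups (adjusted p = 5.51e-06 and 1.64e-05). Aco1, the iron-regulatory protein IRP1, fell by 0.46 (adjusted p = 5.34e-04), though not with all rows in both fit and adjustment (adjusted p = 0.0519), and it stood at -0.30 after centring on chromosome blocks. Slc25a28 also rose, by 0.41, and the copper gene Cox17 fell by 0.30 (adjusted p = 4.62e-04 and 0.0180, both chosen after their values were seen). The copper importer Slc31a1 did not pass, at -0.21 (adjusted p = 0.0674, likewise). Nor did the ferritin chain Fth1, at 0.11 (adjusted p = 0.229, likewise).

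Genes listed as responsive to glucocorticoids, heat shock or NRF2 moved in both directions, and their relation to Mt1 and Mt2 was not tested. Of 7 glucocorticoid-responsive genes, 2 rose and 1 fell (42.9%, beside 17.1% of all genes, dim ones included, median -0.02). Klf9 rose by 0.40 and Errfi1 by 0.20, whereas Sgk1 fell by 0.40 (limma adjusted p = 8.90e-04, 0.0319 and 6.87e-04). With all rows in both fit and adjustment Sgk1 did not pass (adjusted p = 0.0527). Of 10 heat shock and NRF2 genes, 2 rose and 3 fell (50%, beside 17.1% of all genes, dim ones included, median -0.12). Hspa1b fell by 1.15 and Hspa1a rose by 0.39 (adjusted p = 1.22e-06 and 0.00692). They are near-identical heat shock genes, so their separate values are uncertain. Leaving out WT replicate 2 put Hspa1a at 0.24 (adjusted p = 0.152), and with all rows in both fit and adjustment its adjusted p was 0.147, so it lost the call in both. Of the NRF2 genes listed, Nqo1 fell by 0.60 (adjusted p = 1.06e-04) and Gclm rose by 0.20 (adjusted p = 0.0497, chosen after its value was seen). The co-chaperone Dnajb1 fell by 0.22 (adjusted p = 0.0440). Errfi1 and Dnajb1 did not pass with the replicate number as a block (adjusted p = 0.102 and 0.132). Errfi1 also did not pass without Zip13KO replicate 2 or either WT array (adjusted p = 0.125 to 0.170), nor Dnajb1 without Zip13KO replicate 1 or either WT array (0.120 to 0.230). With all rows in both fit and adjustment they were at 0.158 and 0.154.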
